A study of Mus musculus with 6 samples.

Results

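The genes described here encode building blocks of the cornified envelope and lie together in the epidermal differentiation complex on mouse chromosome 3. They were taken from the deposited expression table by gene symbol: Lor, Ivl, Crct1, Flg, Flg2, Hrnr, Rptn, Crnn and Tchh, and every symbol that begins with Lce or Sprr followed by a digit. This gave 41 genes of the 17025 in the table: 14 small proline-rich (Sprr) genes, 18 late cornified envelope (Lce) genes, 6 filaggrin-type genes, and 3 single-gene precursors (Lor, Ivl and Crct1). Tchhl1 was not analysed here.

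RNA was sequenced from integrin α6-positive epidermal progenitors, taken by cell sorting at postnatal day 0. The 3 libraries labelled control carry the genotype K14Cre,Ash2lF/+ and the 3 labelled cKO the genotype K14Cre,Ash2lF/F, with no treatment. All animals therefore carry K14Cre, a Cre recombinase driven from the keratin 14 promoter, which is active in basal cells of stratified epithelia, and the controls also carry 1 floxed allele of Ash2l. Ash2l encodes a subunit shared by the MLL-type complexes that methylate histone H3 at promoters, and the series concerns its role in epidermal differentiation and hair follicle formation. The labels do not say that the libraries of a group are separate animals, and p-values then measure a spread between libraries that may be technical.

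The targeted gene went against its labels. Levels are given below in the order of libraries 1, 2 and 3 of each label, and "under the cKO label" means in the libraries labelled cKO; where sets of values are joined by "and then", the control label comes first. Ash2l measured 12.4, 18.1 and 15.9 FPKM under the control label and 30.9, 29.5 and 22.9 FPKM under the cKO label (FPKM are fragments per kilobase of gene model and per total of the library). It was higher in the libraries labelled cKO (log2 difference 0.81, SE 0.19, n = 3 per group, limma adjusted p = 0.024), but the call ended when control 1 or 3, or cKO 1 or 2, was left out (adjusted p up to 0.0829). A gene total does not show whether a floxed exon was lost. Groups are called by their labels, and each direction given here depends on them.

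The libraries held 31578875 to 36027550 fragments each. Summed basal keratinocyte markers (Krt5, Krt14 and 6 others) ranged from 4896 to 10461 FPKM. Suprabasal markers (Krt1, Krt10 and 4 others) summed to 4657, 7140 and 6239 FPKM under the control label and to 35296, 36018 and 67990 FPKM under the cKO label. Melanocyte markers went the other way, from 2958 to 3366 FPKM under the control label and from 178 to 394 FPKM under the cKO label, with all 8 lower. Immune markers summed to at most 4.85 FPKM in any library. Bulk libraries mix all sorted cells, so fewer cells of a type and less RNA per cell cannot be told apart in any result below.

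The cornified envelope is the protein shell that replaces the plasma membrane of a keratinocyte as it dies and becomes part of the outer barrier. Envoplakin, periplakin and involucrin form an early scaffold, and loricrin, small proline-rich and late cornified envelope proteins are then crosslinked onto it by transglutaminases. Filaggrin-type proteins carry an S100 domain followed by long repeats. Filaggrin itself bundles keratin filaments and, once broken down, helps the outer layers to hold water. In resting skin Sprr1 and Sprr2 genes are little expressed between follicles and are known to be raised in wounded or barrier-deficient epidermis, whereas Lor and Flg mark the granular layer.

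The test asked which genes differed between the labelled genotypes. It ran over 11603 genes, those whose 6 libraries averaged 1 FPKM or more, on log2(FPKM + 1), a scale on which low genes change by less than their ratio. A gene was called when its limma adjusted p was under 0.05. Over all genes tested, 5.87% were called higher under the cKO label and 13.6% lower, with a median log2 difference of -0.17. Of the 41 envelope genes 21 were tested, and 1 was called higher and 7 lower. The other 20 stayed below a mean of 1 FPKM, and 10 of these did not exceed 1 FPKM in any library (highest value 0.798 FPKM).

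Upstream sequences are shown for 4 of the 6 Sprr genes called lower, for Lce3c, the other gene called lower, for Flg, the gene called higher, and for Lor, which was not called. They were picked with their motif matches known, and each holds the 250 bases before the transcription start, from RefSeq on build GRCm38.p6, whereas the deposited values were made on GRCm39. Each runs 5′ to 3′ on the strand of its gene: Sprr1a at chr3:92485882-92486131 (minus strand), Sprr1b at chr3:92438780-92439029 (minus strand), Sprr2h at chr3:92385435-92385684 (plus strand), Sprr2d at chr3:92338890-92339139 (plus strand), Lce3c at chr3:92944236-92944485 (plus strand), Flg at chr3:93273296-93273545 (plus strand) and Lor at chr3:92083143-92083392 (minus strand). Capitals mark matches to the AP-1 motif TGANTCA and to the TATA box TATAAA, each searched on both strands.
Sprr1a: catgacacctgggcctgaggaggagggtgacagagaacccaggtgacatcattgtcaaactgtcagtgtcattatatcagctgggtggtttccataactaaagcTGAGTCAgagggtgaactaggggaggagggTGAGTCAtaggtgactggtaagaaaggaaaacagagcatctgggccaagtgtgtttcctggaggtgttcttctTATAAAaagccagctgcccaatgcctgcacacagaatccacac
Sprr1b: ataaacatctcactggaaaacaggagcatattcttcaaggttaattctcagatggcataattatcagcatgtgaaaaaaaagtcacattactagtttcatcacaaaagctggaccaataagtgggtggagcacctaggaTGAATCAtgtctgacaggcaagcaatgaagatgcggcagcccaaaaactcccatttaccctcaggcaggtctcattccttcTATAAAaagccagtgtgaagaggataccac
Sprr2h: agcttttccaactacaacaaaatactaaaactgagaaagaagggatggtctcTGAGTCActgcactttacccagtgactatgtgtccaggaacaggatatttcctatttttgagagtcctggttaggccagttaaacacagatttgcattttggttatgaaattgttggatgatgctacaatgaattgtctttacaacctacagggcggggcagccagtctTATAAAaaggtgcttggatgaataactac
Sprr2d: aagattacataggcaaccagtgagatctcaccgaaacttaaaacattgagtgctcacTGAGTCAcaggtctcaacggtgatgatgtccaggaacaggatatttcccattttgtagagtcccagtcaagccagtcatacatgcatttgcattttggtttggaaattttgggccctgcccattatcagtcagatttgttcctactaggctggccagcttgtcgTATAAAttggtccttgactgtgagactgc
Lce3c: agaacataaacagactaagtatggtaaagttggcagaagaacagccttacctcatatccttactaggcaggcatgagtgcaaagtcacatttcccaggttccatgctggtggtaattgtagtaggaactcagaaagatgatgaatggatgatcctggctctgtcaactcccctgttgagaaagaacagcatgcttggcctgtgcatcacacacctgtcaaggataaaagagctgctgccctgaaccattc
Flg: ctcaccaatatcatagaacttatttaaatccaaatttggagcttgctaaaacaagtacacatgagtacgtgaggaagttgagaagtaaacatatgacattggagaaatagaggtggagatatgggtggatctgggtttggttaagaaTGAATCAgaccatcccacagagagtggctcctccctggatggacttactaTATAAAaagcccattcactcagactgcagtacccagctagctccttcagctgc
Lor: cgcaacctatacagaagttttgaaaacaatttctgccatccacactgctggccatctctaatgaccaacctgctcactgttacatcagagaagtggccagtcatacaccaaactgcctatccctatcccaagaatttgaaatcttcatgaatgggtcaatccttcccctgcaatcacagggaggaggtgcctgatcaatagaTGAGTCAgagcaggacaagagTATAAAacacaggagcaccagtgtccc

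Of these promoters the 4 Sprr, Flg and Lor hold a match to both motifs, and Lce3c holds neither. Sprr1a has an AP-1 match at 146 and another at 116 bases before the start, and Sprr1b has 1 at 111 bases. In Sprr2h and Sprr2d the match lies farther out, at 198 and 193 bases, and in Lor it lies at 48 bases. A promoter was found for 39 of the 41 genes; Crct1 and Lce1f had none. Of 14 Sprr promoters 9 hold an AP-1 match and 10 a TATA box, against 6.75% and 12.4% of all 32851 mouse promoters of the same length. Of 10 Sprr2 promoters 7 hold the AP-1 match, between 182 and 198 bases before the start, and the Sprr2a1, Sprr2a2 and Sprr2a3 promoters hold none. No AP-1 match was found in the 17 Lce promoters, 3 of which hold the TATA box. Filaggrin-type promoters held the AP-1 motif in 4 of 6 cases, and both Lor and Ivl held it.

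Other motifs were searched on both strands in the same windows. The C/EBP motif TTNNGNAA, which can overlap other AT-rich matches, was in 12 of 14 Sprr and 6 of 17 Lce promoters, against 36.8% of all promoters. The KLF motif CCNCNCCC was in 4 of 14 Sprr and none of 17 Lce promoters (45.9% of all). The antioxidant response element TGACNNNGC, which can overlap the AP-1 motif, was in 2 Sprr and 3 Lce promoters (10.2% of all). The GRHL motif AACCNGGTT, the interferon-stimulated response element and the ETS motif CGGAAGT were in no envelope gene promoter, and in 0.24%, 2.98% and 4.92% of all promoters. The Sprr2 promoters did not all resemble each other, with a median identity of 62.2% over 45 pairs (48.0 to 100%). Identity was 79.9 to 100% among Sprr2a1, Sprr2a2 and Sprr2a3, and 60.1 to 89.3% among the other Sprr2 promoters. Between these sets it was 48.0 to 52.8%. That was as low as in pairs with an Sprr1, Sprr3 or Sprr4 promoter (median 51.2%, 47.7 to 57.8%). A match in these windows is a description of the letters and shows no binding.

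The Sprr genes were much lower in the libraries labelled cKO. Their summed level was 292, 541 and 336 FPKM under the control label and 60.0, 56.1 and 40.4 FPKM under the cKO label. The group means were 390 ± 133 and 52.2 ± 10.4 FPKM (SD, n = 3 each), 7.47-fold apart, and the groups did not overlap. Of 9 Sprr genes tested 6 fell and none rose. Of the 9, 5 (Sprr2b, Sprr2d, Sprr2f, Sprr2h and Sprr2k) reached a mean of 1 FPKM only through the libraries labelled control. The family is therefore better read without that filter. With all 17025 genes in the fit, 7 of 14 Sprr genes fell and none rose, where 7.87% of all genes fell and 3.22% rose. In 8 of 14 Sprr genes every library labelled cKO lay below every library labelled control, as in 25.0% of all genes.

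Sprr1a and Sprr1b carried most of the family's level. These genes encode crosslinked envelope precursors known as markers of squamous differentiation and of stressed epidermis. Sprr1a measured 163, 327 and 209 FPKM under the control label and 45.1, 40.7 and 29.8 FPKM under the cKO label. Every library labelled cKO was below every library labelled control, and the mean fell 6.06-fold (log2 difference -2.53, SE 0.27, adjusted p = 0.00169). Sprr1b measured 84.9, 165 and 104 and then 10.3, 12.8 and 2.46 FPKM in the same order. It fell 13.9-fold (log2 difference -3.82, SE 0.50, adjusted p = 0.00323). The pair did not keep its proportion: Sprr1a was 1.92, 1.98 and 2.01 times Sprr1b per length in the libraries labelled control and 4.39, 3.19 and 12.1 times in those labelled cKO. The ratio was thus nearly constant under the control label and higher in each library labelled cKO, most in cKO 3. Together they made up 77.0 to 82.4% of the FPKM of all 41 envelope genes in the libraries labelled control and 41.6 to 46.1% in those labelled cKO.

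Among the Sprr2 genes, short proline-rich precursors whose products crosslink other envelope proteins, Sprr2h had the highest level per length under the control label, while Sprr2a3 was above it in every library labelled cKO. Sprr2h measured 20.3, 14.4 and 6.53 FPKM under the control label and 0.831, 0.117 and 0.406 FPKM under the cKO label, which rest on 482, 357 and 161 and on 21, 3 and 11 fragments. The groups lay far apart (means 13.7 and 0.451 FPKM, log2 difference -3.25, SE 0.39, adjusted p = 0.00241). Sprr2d measured 4.79, 7.86 and 3.45 and then 0.262, 0 and 0.448 FPKM (-2.32, SE 0.31, adjusted p = 0.0032). Sprr2b measured 5.16, 2.25 and 1.75 and then 0, 0 and 0.437 FPKM (-1.75, SE 0.35, adjusted p = 0.0134). Both were thus at or close to 0 in the libraries labelled cKO, where at most 11 fragments of either were counted. Sprr2h, Sprr2d and Sprr2b passed the filter only through the libraries labelled control. With no filter their adjusted p were larger, and each kept its call.

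Sprr2k and Sprr2e were at 0 in every library labelled cKO. Sprr2k measured 4.16, 8.81 and 2.86 FPKM under the control label and fell (-2.54, SE 0.35, adjusted p = 0.00356). Sprr2k also passed the filter only through the libraries labelled control, and kept its call with no filter, at a larger adjusted p. Taking 3 fragments per library as the most that a count of 0 allows, it was at least 12.9-fold lower. Sprr2e measured 1.76, 0.561 and 1.04 FPKM there, which by the same limit makes it at least 8.34-fold lower under the cKO label, and without the filter it fell (-1.04, SE 0.20, adjusted p = 0.0287). Sprr2f was uneven: it measured 4.58, 1.99 and 0 FPKM under the control label and 0, 0.772 and 0 FPKM under the cKO label, so the groups overlapped (-1.08, SE 0.59, adjusted p = 0.236). It was called in 1 of 17 alternatives, without the library labelled control 3, which was at 0 (adjusted p = 0.0424).

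Sprr2a3 lay at the threshold. It measured 2.19, 9.69 and 6.08 FPKM under the control label and 1.01, 0.379 and 2.05 FPKM under the cKO label (-1.61, SE 0.47, adjusted p = 0.05005), with no overlap between the groups. It was called in 4 of 17 alternatives, among them without the library labelled control 1 or cKO 3 (adjusted p = 0.023 and 0.043). Leaving out another library gave an adjusted p up to 0.147. Its near copies Sprr2a1 and Sprr2a2 were at most 0.224 FPKM in any library, per length of a longer recovered gene model (3547 bases against 852). Of the 100-base windows of the longest GENCODE M21 transcript, 92.5% for Sprr2a1, 92.8% for Sprr2a2 and 36.2% for Sprr2a3 also occur in another envelope gene, so the split of fragments among these 3 genes is uncertain. The Sprr2a3 transcript has 2880 bases, so its share may differ over the gene model that was counted. The corresponding share was 0 for Sprr1a, Sprr1b, Sprr2d, Sprr2f, Sprr2h and Sprr2k and at most 1.16% for Sprr2b, Sprr2e and Sprr2i.

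A few Sprr genes did not share this pattern. Sprr4 measured 0, 2.62 and 0.132 FPKM under the control label and 2.45, 0.763 and 3.48 FPKM under the cKO label (0.91, SE 0.55, adjusted p = 0.277), on at most 29 fragments. Sprr2i measured 0.719, 0 and 0.494 and then 0, 0.667 and 1.17 FPKM, with overlapping groups. Sprr3, known from oral and oesophageal epithelium, was at 0 in 5 of 6 libraries. Sprr1a, Sprr1b, Sprr2d, Sprr2h and Sprr2k were called in every alternative in which they were tested, each library left out in turn among them. Of 8 stress keratinocyte markers 5 were lower and 1 higher, and they summed to 6172 to 8419 FPKM under the control label and 6107 to 10222 FPKM under the cKO label. The melanocyte markers, 8 of 8 lower, moved in the same direction as the Sprr genes. The part of either list in the Sprr result was not tested.

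**Figure D1:**
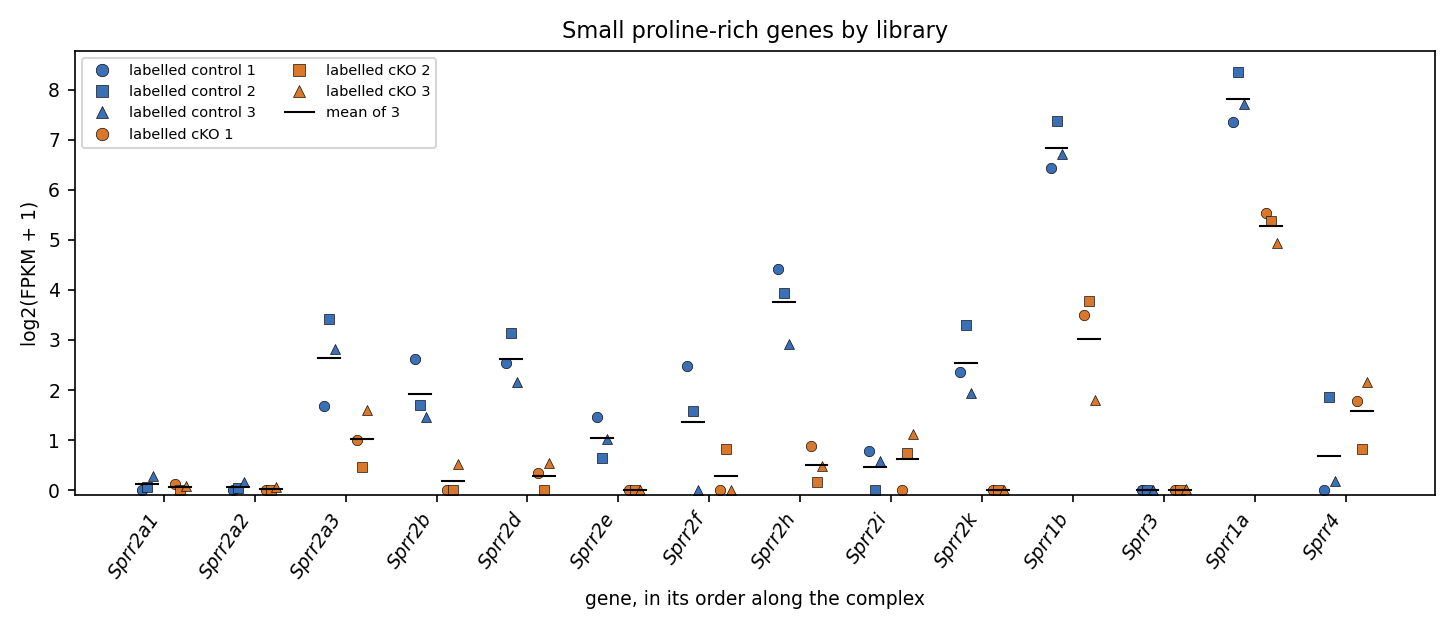
Level of each Sprr gene on the log2(FPKM + 1) axis, with 1 point per library (3 labelled control in blue, 3 labelled cKO in orange, marker shape for the library number) and a bar for the mean of 3. In Sprr1a, Sprr1b, Sprr2a3, Sprr2b, Sprr2d, Sprr2e, Sprr2h and Sprr2k all orange points lie below all blue ones, while Sprr4 and Sprr2i overlap.

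The Sprr genes occupy 1 run of the complex. Of the 7 envelope genes called lower, 6 lie in it and 1 does not. In the order of RefSeq, the envelope genes start with Lor and go on through the Sprr2 genes, Sprr1b, Sprr3, Sprr1a and Sprr4. Ivl and the Lce genes follow, and Crnn, Flg2, Flg, Hrnr, Rptn and Tchh come last. Other genes of the complex are left out of this order. All 6 Sprr genes that fell lie from Sprr2b to Sprr1a. Of the nearest envelope genes tested, Sprr4 was at 0.91, Ivl at 0.25 and Lor at 1.81, none of them called. Genes called lower were also found outside the run: Pglyrp3 and 6 S100 genes of the same complex, which are not envelope genes here, and Lce3c. Lce3c lies among the Lce genes, and Flg, the only envelope gene called higher among those tested, lies near the far end of this order. This order is a description, and a difference between runs was not tested.

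**Figure D2:**
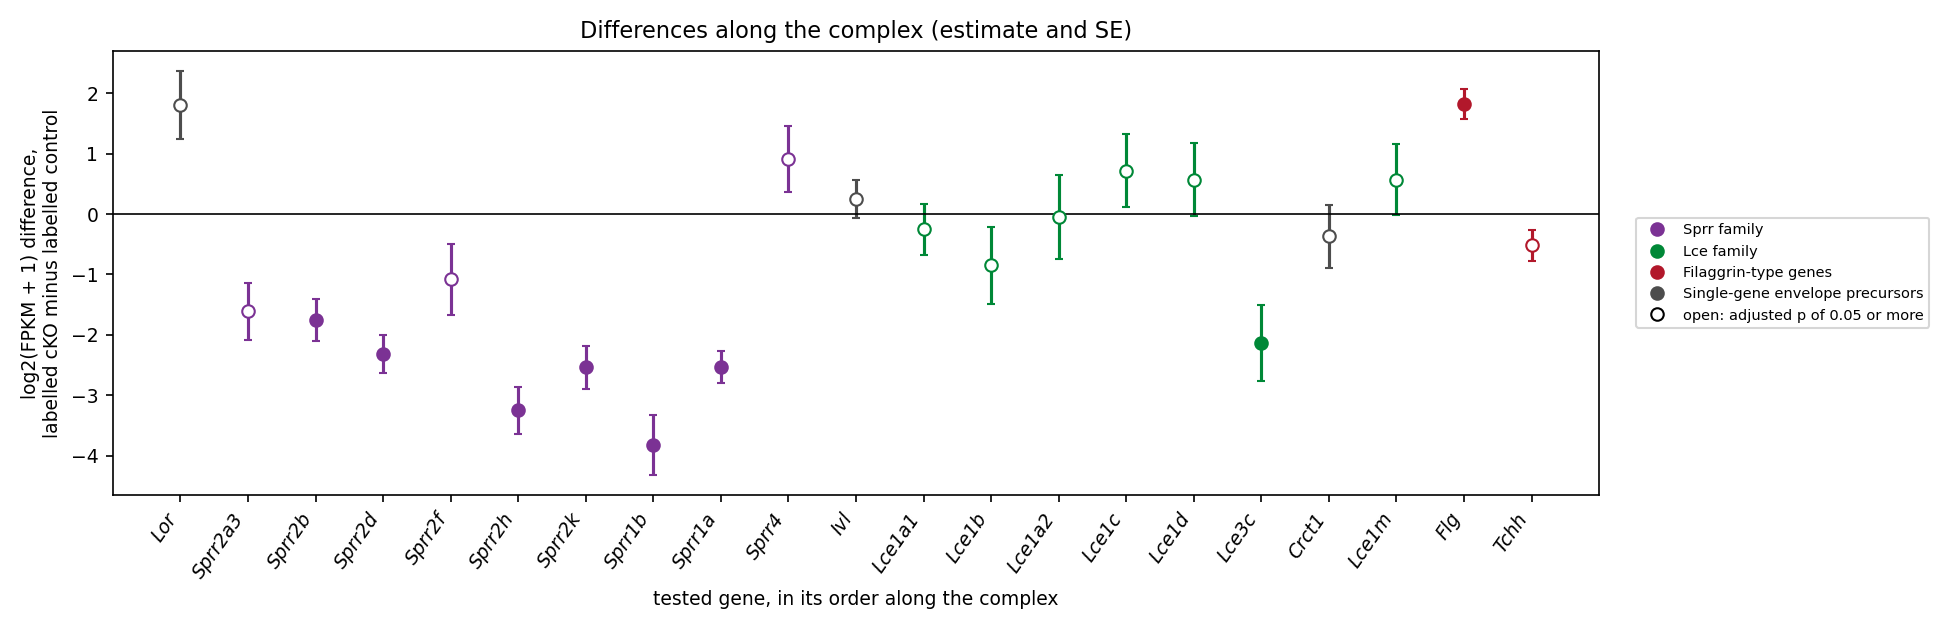
Log2 difference in FPKM + 1 (libraries labelled cKO minus those labelled control, points with SE) for the 21 envelope genes tested, placed in their order along the complex; filled points have an adjusted p under 0.05. The points from Sprr2a3 to Sprr1a lie between -1.08 and -3.82, and those of Lor and Flg at 1.81 and 1.82.

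Filaggrin itself went the other way. Flg, which encodes the profilaggrin of keratohyalin granules, measured 0.544, 1.51 and 1.62 FPKM under the control label and 6.46, 6.46 and 7.09 FPKM under the cKO label. The 3 libraries labelled cKO lay close together and well above the others, on 2971, 3010 and 3497 fragments against 235, 682 and 727. Of all genes tested 12.0% had every library labelled cKO above every control. The mean rose 5.45-fold, from 1.22 ± 0.592 to 6.67 ± 0.366 FPKM (SD, n = 3 each; log2 difference 1.82, SE 0.25, adjusted p = 0.00374), and Flg was called in all 17 alternatives in which it was tested. Hrnr, which encodes the related hornerin, was much lower per length, at 0.143, 0.21 and 0.0114 and then 0.798, 0.446 and 0.362 FPKM. Its groups did not overlap either, but without the filter it did not pass the test (0.45, SE 0.13, adjusted p = 0.0767). Flg2 reached at most 0.204 FPKM, with overlapping groups. Suprabasal markers were higher with Flg, 4 of 6 called and summed to at least 35296 FPKM under the cKO label against at most 7140 FPKM, and their part in the Flg result was not tested.

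Of the remaining filaggrin-type genes Tchh did not pass the test, and Crnn and Rptn averaged below 1 FPKM. Tchh encodes trichohyalin of the inner root sheath of hair, and it was the most abundant of the 6 per length. It measured 17.7, 10.5 and 13.1 FPKM under the control label and 7.71, 7.55 and 12.9 FPKM under the cKO label, so cKO 3 lay within the range of the controls (-0.52, SE 0.26, adjusted p = 0.199). Inner root sheath markers, 8 in all with none at 0 in every library, summed to 47.0 to 55.6 FPKM under the control label and 94.7 to 120 FPKM under the cKO label. The 2 called higher were Gata3 (means 35.8 and then 62.2 FPKM) and Tgm3 (means 4.15 and then 24.5 FPKM). These 2 genes made up most of the sum in every library, and no other gene of the list was called. Both also belong to other lists used here, so the sum mainly describes them and not the list as a whole. The part of inner root sheath cells in the Tchh values was not tested. Crnn encodes cornulin of oral and oesophageal epithelium. It measured 0, 0.813 and 0.495 and then 0, 0.208 and 2.29 FPKM, highest in cKO 3, where 6 oral and oesophageal markers also had their highest sum (13.2 FPKM against 6.2 to 8.41 in the other libraries). Rptn, which encodes repetin, measured 1.09, 0.89 and 0.625 and then 0.933, 0.694 and 0.482 FPKM, with overlapping groups.

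Of the single-gene precursors none was called, and Lor was split among the libraries labelled cKO. At an unadjusted p under 0.05 limma gave 1 of the 3 higher and none lower. The share of all genes at that threshold is not given here, so this count has no background. Lor encodes loricrin, the main protein of the mature envelope. It measured 1.42, 5.34 and 2.95 FPKM under the control label and 21.2, 19.4 and 4.81 FPKM under the cKO label. cKO 1 and 2 were well above every control, and cKO 3 lay below control 2 (1.81, SE 0.56, adjusted p = 0.0559). Without cKO 3 the difference was 2.44 and was called (adjusted p = 0.00826), and scaling by the median of ratios also gave a call (1.99, adjusted p = 0.035). Lor was called in 5 of 18 alternatives, and leaving out a library other than cKO 3 gave an adjusted p up to 0.151. Flg did not share the low value of cKO 3: the ratio of Flg to Lor per length was 0.304 and 0.332 in cKO 1 and 2 and 1.48 in cKO 3, against 0.282 to 0.55 in the libraries labelled control.

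Ivl encodes involucrin of the early scaffold. It measured 2.25, 5.32 and 3.42 FPKM under the control label and 3.93, 3.25 and 6.26 FPKM under the cKO label, with overlapping groups (0.25, SE 0.31, adjusted p = 0.608). Crct1 measured 2.65, 1.94 and 3.06 and then 3.11, 3.52 and 0.0774 FPKM (-0.37, SE 0.52, adjusted p = 0.65). All its libraries but cKO 3 lay within 1.94 to 3.52 FPKM, and without cKO 3 the sign of the difference turned (0.29).

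**Figure D3:**
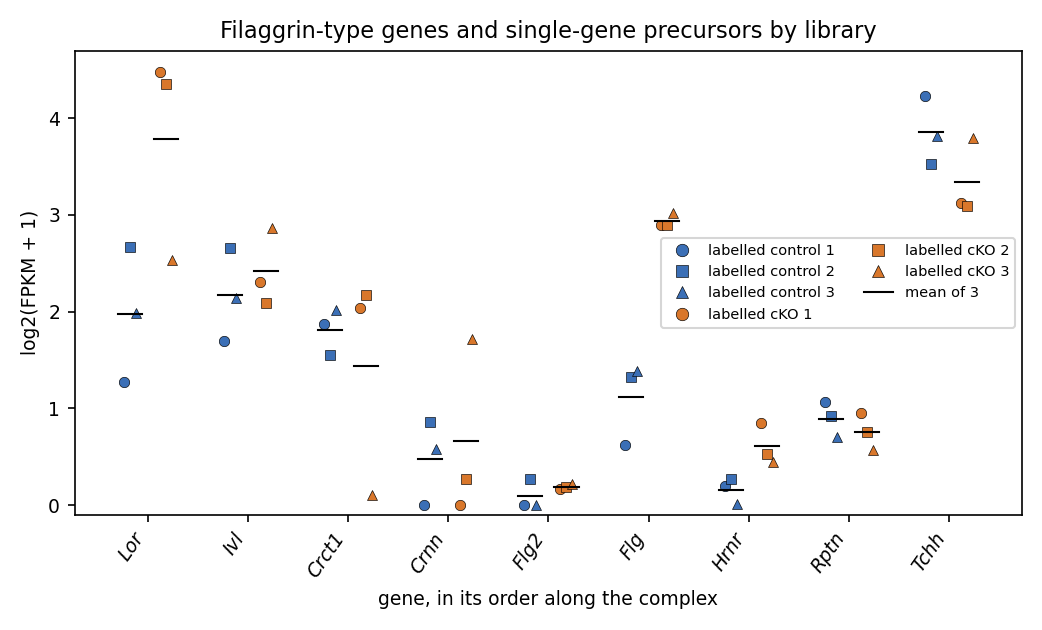
Level of the filaggrin-type genes and of Lor, Ivl and Crct1 on the log2(FPKM + 1) axis, with 1 point per library (labelled control in blue, labelled cKO in orange) and a bar for the mean of 3. Flg shows the 3 orange points together at 6.46 to 7.09 FPKM above all blue ones, whereas in Lor and Crct1 the orange triangle, cKO 3, lies away from the other orange points.

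The Lce genes differed more between libraries of 1 group than between the groups. These small cysteine-rich proteins are added late to the envelope. Their summed level was 4.73, 30.1 and 22.0 FPKM under the control label and 28.9, 18.0 and 1.7 FPKM under the cKO label. The libraries labelled control 1 and cKO 3 were low and the other 4 high, so the group means of 18.9 ± 12.9 and 16.2 ± 13.7 FPKM (SD, n = 3 each) overlapped widely. Leaving out 1 library moved the first of these means between 13.4 and 26.0 FPKM and the second between 9.84 and 23.4 FPKM. Control 1 and cKO 3 had 107 and 48 Lce fragments, against 462 to 730 in the other 4, and each had 10 of 18 Lce genes at 0. Control 1 and cKO 3 also had the smallest and the largest total of the 6 libraries, and the lowest and the highest sum of suprabasal markers. Erythroid markers summed to 3.29, 13.1 and 48.8 and then 45.6, 23.0 and 7.41 FPKM, and endothelial markers to 4.0, 7.41 and 6.25 and then 7.54, 8.5 and 2.42 FPKM, both lowest in control 1 and cKO 3. Fibroblast markers, at 135, 202 and 393 and then 500, 457 and 207 FPKM, were lowest in the same library of each group. None of these lists had a marker at 0 in every library, and their part in the Lce values was not tested. Of 7 Lce genes tested none was called higher and 1 lower, beside 5.87% higher and 13.6% lower over all genes tested. With no filter 0 of 18 were called either way, beside 3.22% higher and 7.87% lower of all genes. At an unadjusted limma p under 0.05 the counts of the 7 were likewise 0 and 1. The share of all genes at that threshold is not given here.

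The 14 Lce1 genes, expressed in normal cornifying epidermis, carried this split. Their sum was 3.51, 16.3 and 19.3 and then 28.4, 17.3 and 1.25 FPKM, and 8 of the 14 were at 0 in control 1 and in cKO 3, against 0 to 3 in the other libraries. Lce1m measured 0.433, 2.93 and 1.18 FPKM under the control label and 5.89, 2.94 and 0.474 FPKM under the cKO label (0.57, SE 0.59, adjusted p = 0.528). Lce1c measured 0, 1.0 and 2.02 and then 3.08, 4.42 and 0.23 FPKM (0.72, SE 0.61, adjusted p = 0.432). Both were lowest in control 1 within their group and in cKO 3 within theirs. Lce1b had its 2 highest values in controls, at 0, 4.49 and 3.49 and then 1.2, 0.908 and 0 FPKM (-0.85, SE 0.64, adjusted p = 0.379), and was called without control 1 (-1.62, adjusted p = 0.0409).

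Lce1a1 measured 1.74, 1.62 and 2.89 and then 2.98, 2.2 and 0.314 FPKM (-0.25, SE 0.42). Lce1a2 measured 0.0443, 0.762 and 4.78 and then 3.16, 1.31 and 0 FPKM (-0.05, SE 0.70). Lce1d measured 0.0467, 0 and 2.34 and then 2.81, 1.91 and 0.0409 FPKM (0.57, SE 0.61). These genes had overlapping groups and adjusted p of at least 0.541. Of the Lce1 genes below a mean of 1 FPKM, Lce1e was lowest in cKO 3 (0 FPKM against 0.619 to 1.5 in the others), and Lce1k was listed above 0 in cKO 1 and cKO 2 (0.718 and 0.753 FPKM, on 16 and 17 fragments) and in no other library. Lce1f, Lce1h, Lce1i, Lce1j and Lce1l exceeded 1 FPKM in 1 or 2 libraries each and had overlapping groups.

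The Lce3 genes are known from injured skin, and Lce3c was the only one above 1 FPKM. It measured 1.01, 12.7 and 2.27 FPKM under the control label, on 18, 236 and 42 fragments, and 0.0527, 0 and 0 FPKM under the cKO label, on 1 fragment in all. The groups did not overlap (-2.14, SE 0.63, adjusted p = 0.0496), but Lce3c reached a mean of 1 FPKM only through the libraries labelled control, where it is high. With no filter it was not called (adjusted p = 0.0975), and 11 of 17 alternatives ended the call, leaving out control 3 or any library labelled cKO among them (adjusted p up to 0.136). Control 2 held most of the level, and without it the difference was -1.33 (adjusted p = 0.0333). Of the 100-base windows of its transcript 24.1% also occur in other Lce3 genes, so its fragments are less certain than those of the Lce1 genes, where the share was at most 4.9%. Lce3a was at 0.772 FPKM in control 2 and at 0 elsewhere, and Lce6a lay between 0.207 and 0.674 FPKM in all libraries.

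**Figure D4:**
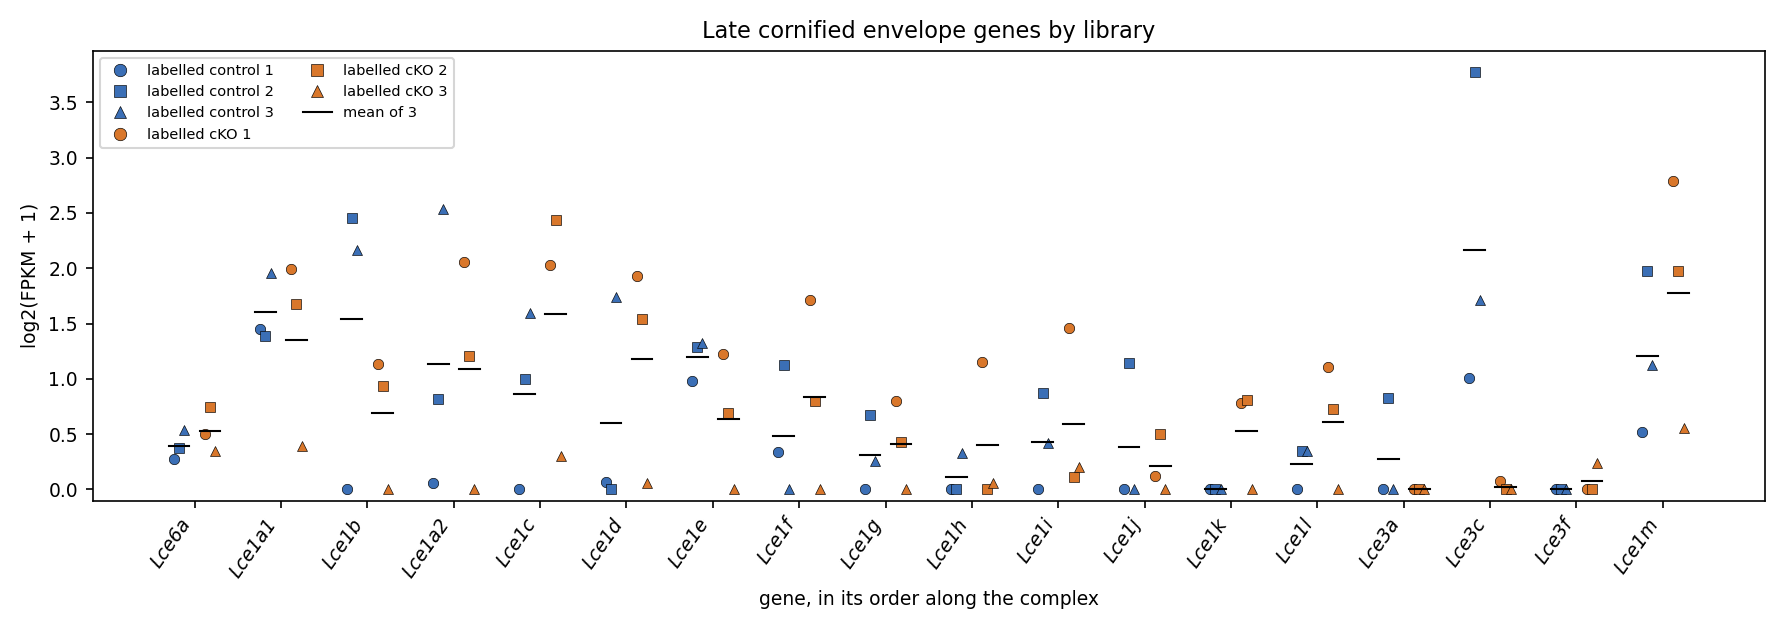
Level of each Lce gene on the log2(FPKM + 1) axis, with 1 point per library (labelled control in blue, labelled cKO in orange) and a bar for the mean of 3. The blue circle (control 1) and the orange triangle (cKO 3) lie near 0 for most Lce1 genes, while Lce3c is above 0 in all 3 libraries labelled control and at or near 0 in those labelled cKO.

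The partners that crosslink and carry the envelope included 7 genes that rose and 2 that fell under the cKO label. These were among 13 tested of 14 crosslinking and scaffold genes, with a median log2 difference of 0.55, beside 5.87% higher, 13.6% lower and a median of -0.17 over all genes tested. Scel, which encodes the envelope protein sciellin, rose from 16.6 ± 1.82 to 36.5 ± 1.89 FPKM (SD, n = 3 each; 1.10, SE 0.14, adjusted p = 0.00301). The desmosomal genes Dsg1a (1.64, adjusted p = 0.0032) and Pkp1 (0.79, adjusted p = 0.00399) rose as well. The 2 genes that fell were Cdsn, which encodes corneodesmosin (-1.55, adjusted p = 0.0182), and Tgm1. Cdsn reached a mean of 1 FPKM only through the libraries labelled control (mean 0.863 FPKM under the cKO label), and kept its call with no filter. Tgm1 encodes the membrane-bound transglutaminase of the envelope; it measured 18.1, 21.9 and 22.5 and then 11.4, 8.9 and 11 FPKM, and fell with no overlap between the groups (-0.93, SE 0.17, adjusted p = 0.00945). Tgm3, named after its values were seen, rose (2.11, adjusted p = 0.0127), as did the scaffold genes Evpl (0.99) and Ppl (0.55). Without control 2 there were 4 higher and 1 lower, Tgm3 (adjusted p = 0.0586), Ppl and Cdsn being among those lost. Evpl was lost without control 1 or control 3 (adjusted p up to 0.0687).

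Processing enzymes went both ways, with 2 higher and 3 lower of 14 tested (median 0.04), beside the same 5.87% and 13.6% of all genes tested. Prss8, which encodes the membrane protease prostasin that acts in profilaggrin processing, rose from 1.16 ± 0.388 to 12.6 ± 4.91 FPKM (SD, n = 3 each; 2.61, SE 0.28, adjusted p = 0.00179). Klk5, a desquamation protease, fell from 42.8 to 11.4 FPKM (-1.82, SE 0.19, adjusted p = 0.00169), and Spink5, which encodes its inhibitor, fell from 31.6 to 6.96 FPKM (-2.03, SE 0.20, adjusted p = 0.00156). Ctsl, a lysosomal protease gene, fell (-2.33, SE 0.50, adjusted p = 0.0182), and lost its call without control 1, 2 or 3 (adjusted p up to 0.0714). Casp14, which encodes a caspase of filaggrin breakdown, measured 19.3, 54.1 and 46.0 and then 55.2, 49.9 and 101 FPKM, with overlapping groups (0.83, SE 0.41, adjusted p = 0.191). The other gene called higher, Asprv1, lost its call when any 1 library was left out (adjusted p up to 0.13).

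Among 33 regulators of envelope genes, all of them tested, 6 rose and 4 fell (median 0.09), beside 5.87% and 13.6% of all genes tested. Fosl1 encodes an AP-1 subunit; it measured 5.31, 5.7 and 3.58 FPKM under the control label and 0.174, 0.0345 and 0 FPKM under the cKO label, and fell (-2.44, SE 0.24, adjusted p = 0.00136). Fosl1 reached a mean of 1 FPKM only through the libraries labelled control, with a mean of 0.0696 FPKM under the cKO label. It was called in all 17 alternatives in which it was tested, no filter among them. Ehf, which encodes an epithelial ETS factor, fell from 9.68 to 1.4 FPKM (-2.19, SE 0.24, adjusted p = 0.00193). Satb1 (1.01, SE 0.15, adjusted p = 0.00482), which encodes an organiser of chromatin over this complex, and Gata3 (0.79, SE 0.14, adjusted p = 0.00931) rose. Klf4, a barrier regulator, was lower at 113 and 71.2 FPKM (-0.65, SE 0.18, adjusted p = 0.0378), but leaving out any 1 of the 6 libraries ended that call (adjusted p up to 0.0828). Grhl3 (0.23, SE 0.24, adjusted p = 0.525) and Nfe2l2 (-0.18, SE 0.34, adjusted p = 0.746), which encodes the antioxidant regulator NRF2, were not called. The 6 higher became 3 without control 2, and the 4 lower became 2 without control 3 or any 1 of the libraries labelled cKO. The other gene that fell, Jund, encodes an AP-1 subunit, as do Fos, Jun and Junb, and in all of these control 1 stood far above the other libraries. Jund measured 192, 84.1 and 97.1 and then 58.9, 50.5 and 45.8 FPKM (-1.16, SE 0.29, adjusted p = 0.0306), and without control 1 it was at -0.80 (adjusted p = 0.0258), while leaving out control 3 or any library labelled cKO ended its call (adjusted p up to 0.0739). Fos was at 357 FPKM in control 1 and 34.6 to 38.9 in the others, Jun at 344 and 20.2 to 44.4, and Junb at 160 and 20.1 to 46.5, and none of these 3 was called. Fosl2, another AP-1 subunit gene of the list, went the other way, at 79.9, 66.5 and 73.7 and then 100, 81.2 and 116 FPKM. Its groups did not overlap, but it was not called (0.42, SE 0.16, adjusted p = 0.103). Jund, Fos, Jun, Junb and Fosl2 were named after their values were seen. Whether these genes and the envelope genes are linked was not tested.

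**Figure D5:**
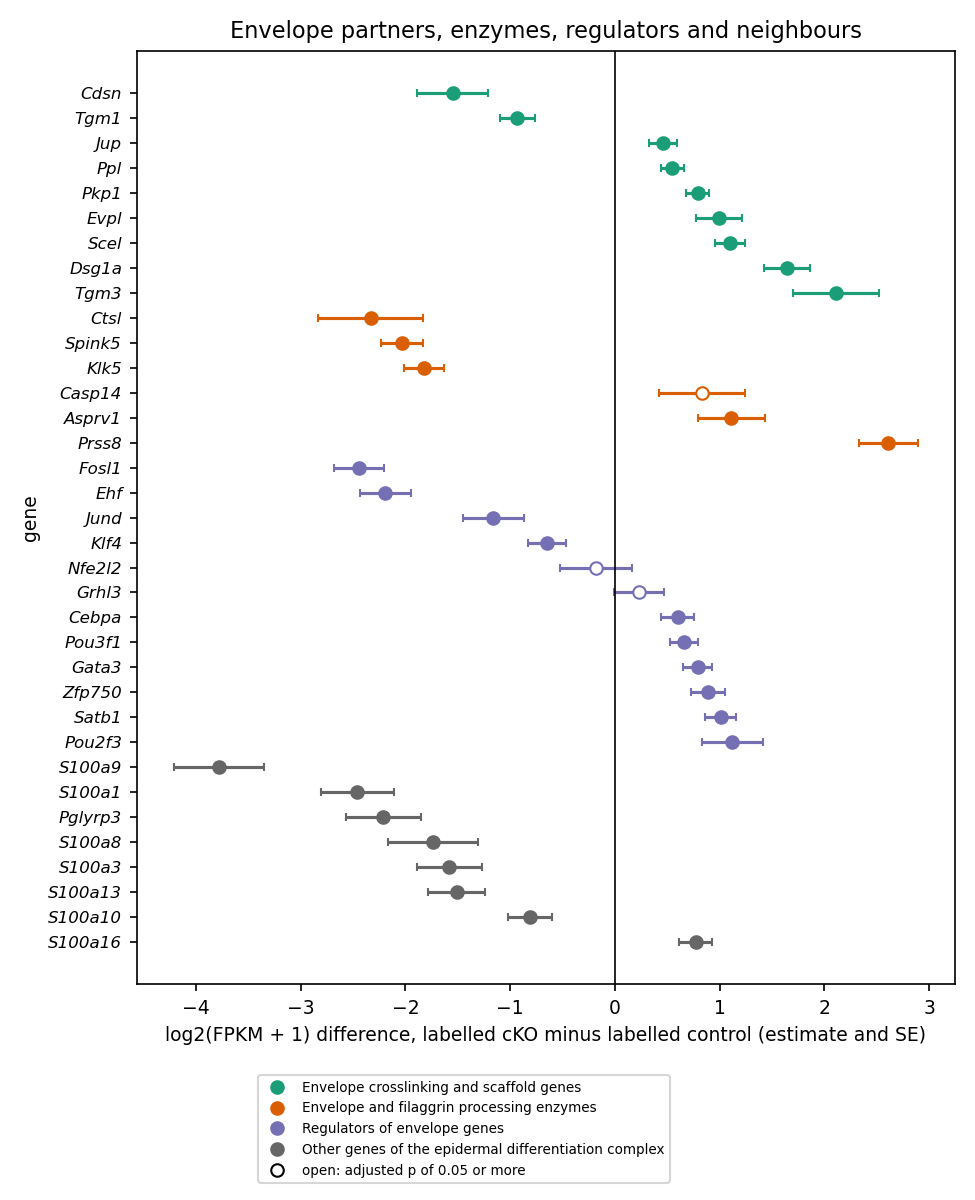
Log2 difference in FPKM + 1 (libraries labelled cKO minus those labelled control, points with SE) for genes of the 4 related lists that were called or named by rule; filled points have an adjusted p under 0.05. Fosl1 and Ehf lie at -2.44 and -2.19, Prss8 at 2.61, and 7 of the 9 crosslinking and scaffold genes shown lie above 0.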

How the data were processed

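RNA of sorted epidermal cells was sequenced in 6 libraries. The authors deposited 1 table of FPKM values, per the file headers, with 1 column per library. Per the submitters' processing notes, fastp, HISAT2 and HTSeq were used with build GRCm39; for versions, annotation, strand setting and multi-mapped fragments, the sources used here give nothing. FPKM divide by the library total, so a large share of Krt1 and Krt10 lowers all other values of a library. These 2 genes held 0.697 to 1.05% of fragments in the libraries labelled control and 6.82 to 14.3% in those labelled cKO, most in cKO 3. The shares called over all genes tested depend on the scaling. They were 5.87% higher and 13.6% lower as deposited, and 9.0% and 8.63% when scaled by the median of ratios.

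Whole fragments were recovered from the FPKM steps for 17024 of 17025 genes (tolerance 1e-09; the smallest whole numbers that give the values), and were used for depth and for 1 alternative test. The test took log2(FPKM + 1), was run in limma 3.58.1 (R 4.3.3) with a trend of variance on mean and no term besides group, and left out genes averaging below 1 FPKM. Adjusted p-values are Benjamini-Hochberg values over all genes tested. The test was checked on simulated data. Lists were described by counts and medians, with no test. Groups and library numbers came from the labels. The members, lists and named genes were chosen with earlier results of these data known. Named were all members averaging 1 FPKM or more, the 4 genes of each related list with the smallest adjusted p, and Tgm1, Casp14, Klf4, Grhl3 and Nfe2l2. Other genes of the related lists (Cdsn, Evpl, Ppl, Tgm3, Asprv1, Jund, Fos, Jun, Junb, Fosl2, S100a3, S100a16) were named after their values were seen. Alternatives were pseudocounts, filters, scalings, variance settings, a replicate block, libraries left out and limma-voom on the recovered fragments. Promoter identity came from global alignment with Biopython 1.88. Figures were drawn with matplotlib 3.10.9. Other marker lists, as summed FPKM over the 6 libraries, were Schwann cell (9.53 to 129) and Merkel (10.2 to 24.9).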

Additional observations from a re-analysis of the deposited data

How the results depend on the processing

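Sprr1a, Sprr1b, Sprr2d, Sprr2h, Sprr2k and Flg kept their direction and their call in every alternative in which they were tested. The Sprr genes called lower numbered 5 to 7 in 17 alternatives and 3 with a filter at 5 FPKM, where fewer genes were tested; Sprr2b lost its call with limma-voom (adjusted p = 0.0692).

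With the replicate block, 432 genes were higher and 893 lower over all genes, Ash2l (0.81) was no longer called, Lce genes had 0 lower and regulators 3 higher. The replicate numbers did not pair the libraries: deviations of same-numbered libraries correlated at -0.307, 0.0798 and -0.261, and no library correlated best with its own number. Leaving out 1 library at a time gave 390 to 715 genes higher and 712 to 1448 lower, Ash2l at 0.67 to 0.94, 6 to 7 Sprr and 0 to 2 Lce genes lower, 0 to 1 single-gene precursors higher, 4 to 7 crosslinking genes higher and 1 to 2 lower, 1 to 2 processing enzymes higher, and 3 to 5 regulators higher and 2 to 5 lower. The same ranges were -0.57 to 0.23 for Lce1a1, -0.58 to 0.65 for Lce1a2, -0.74 to 0.29 for Crct1, -0.03 to 0.38 for Grhl3 and -0.50 to 0.07 for Nfe2l2. The sign turned without cKO 3 in Lce1a1 (0.23), Lce1a2 (0.50), Crct1 (0.29) and Grhl3 (-0.03), without control 3 in Lce1a2 (0.65), and without control 1 (0.07) or cKO 1 (0.03) in Nfe2l2.

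Scaling by the median of ratios moved the median of all genes from -0.17 to 0.03 and gave 1044 higher and 1001 lower, 0 Lce genes lower, 1 precursor (Lor) higher, 2 regulators lower and 2 other genes of the complex higher, with Lce1a2 at 0.02 and Nfe2l2 at 0.04. Quantile normalization gave 1028 higher, 0 Lce genes lower and 1 precursor higher, with Lce1a1 at 0.00 and Nfe2l2 at 0.01. Limma-voom gave 1023 higher and 942 lower, 0 Lce genes and 2 regulators lower, and 2 other genes of the complex higher, with Nfe2l2 at 0.05. Array weights gave 1423 higher and 2831 lower, 1 Lce gene and 1 precursor higher, 1 filaggrin-type gene lower, 4 processing enzymes higher and 5 lower, 9 regulators lower and 2 other genes of the complex higher, with Ivl at -0.11, Lce1a1 at 0.13, Lce1a2 at 0.08 and Crct1 at 0.26. Keeping only controls 2 and 3 with cKO 1 and 2 gave 1174 higher and 2402 lower, 2 Lce genes and 1 filaggrin-type gene lower, 1 precursor and 4 processing enzymes higher and 8 regulators lower, with Ivl at -0.21, Lce1a1 at 0.16 and Crct1 at 0.32. Processing enzymes had 1 higher with a pseudocount of 0.1 or 0.01, a filter at 0.1 or 5 FPKM, no filter or no trend. Lce genes had 0 lower with a filter at 0.1 FPKM, no filter or no trend. No filter gave 2 regulators lower, and the 5 FPKM filter gave 0 filaggrin-type genes higher and 1 crosslinking gene lower. The cause of these shifts was not tested. Under 2 scalings, chosen after seeing the data, the means of summed FPKM moved by less than 1 SD. Leaving out 1 library, also chosen then, cannot move a mean of 3 libraries by 1 SD, so it could not test this. Lce1b was called in 2 of 17 alternatives, without control 1 (adjusted p = 0.0409) and with only the 4 libraries (0.00905). Few fragments were counted for most Lce genes, which limits the precision of their values.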

Other observations

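The other genes of the complex, S100 genes and a few more, included 7 called lower and 1 called higher under the cKO label, of 13 tested and 18 found. Over all genes tested 13.6% were lower and 5.87% higher. The median log2 difference of the 13 was -0.81. With no filter 5 of 18 were called lower and 1 higher, beside 7.87% and 3.22% of all genes. The median of the 18 was then -0.45. S100a9 and S100a3 passed the filter only through the libraries labelled control. Their means under the cKO label were 0.951 and 0.0726 FPKM, and both kept their call with no filter. S100a9, which encodes a calprotectin subunit of stressed epidermis and neutrophils, measured 16.4, 32.1 and 22.9 FPKM under the control label and 0.681, 0 and 2.17 FPKM under the cKO label (-3.78, SE 0.43, adjusted p = 0.00199). S100a1 fell from 29.7 to 5.09 FPKM (-2.46, SE 0.35, adjusted p = 0.00394), and S100a13 from 14.5 to 4.56 FPKM (-1.51, SE 0.27, adjusted p = 0.0092). Pglyrp3, a peptidoglycan recognition gene next to Lor, measured 5.87, 10.2 and 11.7 and then 2.39, 0.933 and 0.512 FPKM and fell (-2.21, SE 0.36, adjusted p = 0.00664). S100a16, the gene called higher and named after its values were seen, measured 70.8, 96.1 and 104 and then 148, 148 and 165 FPKM (0.77, SE 0.16, adjusted p = 0.016). Immune markers, which include none of these genes, summed to 2.64 to 4.85 FPKM in the 6 libraries. Melanocyte markers (8 of 8 lower, 2958 to 3366 and then 178 to 394 FPKM) and Schwann cell markers (1 of 4 tested lower, 80.1 to 129 and then 9.53 to 22.0 FPKM) moved in the same direction as these genes. The Schwann cell marker called lower was Sox10, which is also 1 of the 8 melanocyte markers, and no other was called. The part of such cells in these values was not tested.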
